A study of Mus musculus with 6 samples.

Results

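The polyamine genes described here are the 10 rows of the deposited count table whose gene name is Odc1, Amd1, Amd2, Srm, Sms, Smox, Sat1, Oaz1, Oaz2 or Azin1, out of 27131 rows in all. Each symbol matched 1 row, and all 10 were abundant enough to be among the 16960 genes tested. Messenger RNA was sequenced from the whole levator ani/bulbocavernosus muscle, androgen-sensitive pelvic muscles of the mouse, at 14 weeks of age. The groups were 3 wild-type mice (WT) and 3 mice labelled 113Q, which come from a knock-in model of spinal and bulbar muscular atrophy. That disease is an inherited loss of motor neurons and muscle, and the labels give neither the strain, the zygosity nor the exact allele. The mice of both groups ate standard chow, the labels name no drug or surgery, and each library is 1 mouse.

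Polyamines (putrescine, spermidine and spermine) are small, positively charged molecules that bind nucleic acids and are needed for growth and protein synthesis. Ornithine decarboxylase, encoded by Odc1, makes putrescine from ornithine. S-adenosylmethionine decarboxylase, encoded by Amd1 and Amd2, makes the donor from which spermidine synthase (Srm) and spermine synthase (Sms) add aminopropyl groups. Spermine oxidase (Smox) and the acetyltransferase Sat1 lead back to the smaller polyamines, the antizymes Oaz1 and Oaz2 bind ornithine decarboxylase and send it to the proteasome, and the antizyme inhibitor Azin1 frees it. Odc1, Amd1 and Smox are known as androgen-responsive genes of mouse skeletal muscle.

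In 113Q muscle the transcripts of the pathway did not move together. The S-adenosylmethionine decarboxylase pool, Amd1 and Amd2 summed, was 4.63 times lower, and Smox was 3.62 times lower. Odc1 was 1.39 times higher. Srm, Sms, Sat1, Azin1, Oaz1 and Oaz2 did not pass the test. Of the 10 members 1 was called higher and 2 lower (edgeR quasi-likelihood test, adjusted p below 0.05 over all genes), where 34.6% of all genes tested were called, 16.5% as higher and 18.1% as lower. The groups did not overlap for those 3 members, against 49.9% of all genes tested. The share of members called is close to that background, so the count itself does not set the members apart. The median log2 fold change was 0.01 over the members and 0.01 over all genes tested.

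Estimated counts summed to between 43581087 and 73873481 per library, and WT mouse 1 was the shallowest. Values are given as CPM, the usual depth-scaled counts, with TMM factors that lay between 0.768 and 0.794 in WT and between 1.26 and 1.32 in 113Q. Without those factors the median change over all genes moved by 0.72 on the log2 scale, so higher and lower mean relative to the other genes throughout. The 11 fast myofibre markers summed to between 205700 and 222700 CPM in WT mice against between 46500 and 58090 CPM in 113Q mice, and all 11 were called lower. The epithelial marker Epcam was at 0, 3.83 and 0.0385 CPM in WT mice 1 to 3 and at 0, 8.29 and 10.2 CPM in 113Q mice 1 to 3, and the 14 epithelial and gland markers summed to between 82.6 and 141 CPM in the 3 libraries with Epcam and between 12.4 and 15.2 CPM in the others. Of the other marker lists, 0 of 13 epithelial, 0 of 7 fibroblast and 0 of 9 macrophage genes tested were called (edgeR). Of 6 adipocyte genes 1 was lower, and 2 of 5 Schwann cell genes were higher. Of 7 smooth muscle genes, Acta2 was called higher and Des lower, with a list median log2 fold change of 2.22. Acta2, Myh11, Cnn1, Tagln and Actg2 were 5.20, 4.66, 8.07, 3.22 and 7.05 times higher. Of these only Acta2 passed, and Myh11, Cnn1, Tagln and Actg2 did not (edgeR adjusted p = 0.111, 0.0952, 0.0826 and 0.17). WT mouse 1 was the lowest mouse for all of these genes. For each of them, every 113Q mouse was above every WT mouse, while Smtn overlapped. Their part in the results for the members was not tested. In whole tissue, fewer cells of a type and less RNA per cell cannot be told apart.

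Amd1 and Amd2 have to be read together. On the mm10 assembly, Amd1 lies on the minus strand at chr10:40287458-40302186 and has up to 8 exons in an annotated transcript. Amd2 lies on the same strand at chr10:35708675-35711892 and is a single exon. Their transcripts align over 3202 bases with 14 positions that differ, an identity of 99.6%. The stretch around the annotated start shows the copy, and is printed here because it shows where the likeness of the genes begins: capitals at the end mark the first 20 bases of a 48-base run that both genes share, capitals inside the Amd1 line mark TATATAAG, a TATA-like run chosen after the sequence was seen and found on either strand of 1.01% of 32851 mouse promoter windows of 300 bases.
Amd1: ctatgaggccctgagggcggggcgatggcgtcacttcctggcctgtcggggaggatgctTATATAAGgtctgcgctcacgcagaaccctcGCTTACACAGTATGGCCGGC
Amd2: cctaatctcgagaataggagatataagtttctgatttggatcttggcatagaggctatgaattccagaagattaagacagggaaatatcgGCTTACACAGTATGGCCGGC
Both are read 5′ to 3′ on the minus strand from RefSeq promoter windows of the build GRCm38.p6, at chr10:40302167-40302276 for Amd1 and chr10:35711872-35711981 for Amd2. The shared run begins at the annotated start of Amd2 and 2 bases after that of Amd1. Upstream of it the sequences differ, and the exact run TATATAAG is absent from the Amd2 window. The printed Amd2 line does hold gatataag, which differs from that run only in its first base.

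The estimated counts divide these near-identical transcripts unevenly. Amd1 held 19.3%, 3.60% and 1.18% of the joint count in WT mice 1 to 3 and 13.7%, 2.47% and 2.33% in 113Q mice 1 to 3. The share was highest in mouse 1 of each group; the cause was not tested. Read alone, Amd1 was at 131, 32.5 and 6.81 CPM in WT mice against 18.9, 4.03 and 3.88 CPM in 113Q mice, so the groups overlapped and the difference did not pass (log2 fold change -2.66, SE 1.39, edgeR adjusted p = 0.221). Amd2 was at 549.8, 870.9 and 570.9 CPM in WT mice against 118.9, 158.9 and 162.6 CPM in 113Q mice, with all 3 113Q mice below all 3 WT mice (log2 fold change -2.18, SE 0.22, adjusted p = 0.00043).

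The sum of both genes does not depend on that division. It was at 681, 903 and 578 CPM in WT mice (mean 721 ± 166, SD, n = 3) against 138, 163 and 166.5 CPM in 113Q mice (156 ± 15.6, n = 3). All 3 113Q mice lay below all 3 WT mice. The log2 fold change of the sum was -2.21 (SE 0.17, 95% interval -2.61 to -1.81, edgeR adjusted p = 8.69e-05). Besides these 2 genes, processed pseudogenes such as Amd-ps3 (99.9% identity over 1005 bases) match the transcript and have no row under that name in the table.

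**Figure D1:**
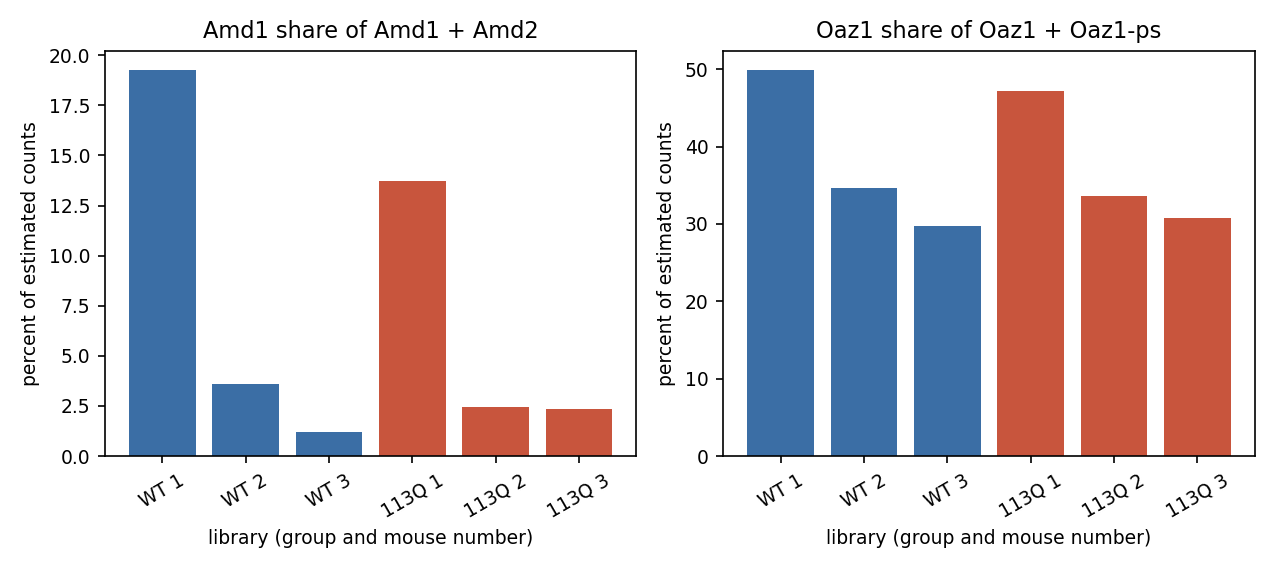
Share of the joint estimated count (y axis, percent) assigned to Amd1 rather than Amd2 (left) and to Oaz1 rather than its pseudogene Oaz1-ps (right) in each library (x axis; blue WT, red 113Q). In both panels mouse 1 of each group stands above the other mice, at 19.3% and 13.7% for Amd1 and 49.9% and 47.2% for Oaz1.

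The same pattern of division appeared at Oaz1 (chr10:80826656-80829290), whose processed pseudogene Oaz1-ps on chr17:17345456-17346140 matches it at 99.7% over 685 bases, with 2 positions that differ. Oaz1 held 49.9%, 34.6% and 29.7% of their joint count in WT and 47.2%, 33.6% and 30.7% in 113Q. Alone, Oaz1 was at 470.2, 263.2 and 235.6 CPM in WT mice against 322.5, 254.4 and 252.8 CPM in 113Q mice. WT mouse 1 set the upper end, and the other 5 mice lay between 235.6 and 322.5 CPM. Summed with the pseudogene, a choice made after the values were seen, the level was 942.4, 760.4 and 792.9 CPM in WT mice against 683.4, 757.5 and 822.9 CPM in 113Q mice, and the difference did not pass (log2 fold change -0.14, SE 0.11, 95% interval -0.40 to 0.12, edgeR adjusted p = 0.376). Oaz1 alone gave -0.22 (adjusted p = 0.584).

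The first step of synthesis moved the other way from the S-adenosylmethionine decarboxylase pool. Odc1 (chr12:17544794-17551505, plus strand, up to 12 exons), the enzyme that commits ornithine to the pathway, was at 80.4, 90.6 and 83.3 CPM in WT mice (84.8 ± 5.27) against 109.7, 117.7 and 126 CPM in 113Q mice (117.8 ± 8.16). Every 113Q mouse was above every WT mouse, which was so for 25.1% of the genes tested, and the spread within each group was small. The log2 fold change was 0.47 (SE 0.09, 95% interval 0.28 to 0.67, edgeR adjusted p = 0.00363). Odc1 has many processed pseudogenes in the mouse genome; of 10 copies with at least 95% identity over at least 200 bases, 1 (Gm15645) has a row in the table and it held between 2 and 9 counts per library. Without the 3 libraries with Epcam, where 113Q is 1 mouse, the log2 fold change was 0.42 and the call was lost (adjusted p = 0.065).

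The aminopropyl transferases downstream did not pass. Srm (chr4:148591503-148594993), which makes spermidine, was at 11.5, 10.9 and 9.99 CPM in WT mice against 7.36, 13.85 and 15.1 CPM in 113Q mice. The 113Q mice were split, with mouse 1 below and mice 2 and 3 above all WT mice, and the log2 fold change was 0.17 (95% interval -0.42 to 0.76, adjusted p = 0.653). The high pair are the 113Q libraries with Epcam. WT mouse 2, the WT library with Epcam, had Srm at 10.9 CPM, between the other WT mice. With a term for Epcam libraries the log2 fold change was -0.06 (edgeR adjusted p = 0.853). The cause of the split was not tested. Without 113Q mouse 1 the Srm log2 fold change was 0.43 and it passed (adjusted p = 0.0344). Sms (chrX:157443855-157492287), which makes spermine, was at 89.8, 112 and 83.5 CPM in WT mice against 101, 115 and 97.4 CPM in 113Q mice. These ranges overlapped, and the interval of the log2 fold change was -0.14 to 0.42 (adjusted p = 0.422). The pseudogene Sms-ps matches an Sms transcript without a difference over 1101 bases and has no row under that name in the table; how reads that match both were counted is not given in the sources used here.

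On the breakdown side, Smox was called lower and Sat1 did not pass. Smox (chr2:131491496-131525922), which oxidises spermine straight back to spermidine, was at 40.1, 58.3 and 34.1 CPM in WT mice (44.2 ± 12.6) against 10.6, 13.55 and 12.5 CPM in 113Q mice (12.22 ± 1.5). All 3 113Q mice lay below the lowest WT mouse, which was so for 24.8% of the genes tested. Its log2 fold change was -1.85 (SE 0.21, 95% interval -2.34 to -1.36, edgeR adjusted p = 0.00065). The 11 fast myofibre markers, all called lower, had a median log2 fold change of -1.87, near that of Smox and of the Amd1 and Amd2 sum; their part in these falls was not tested. Sat1 (chrX:155213132-155216449), which acetylates spermidine and spermine for export or further oxidation, was at 12.3, 18.9 and 16.5 CPM in WT mice against 24.25, 18.1 and 23.7 CPM in 113Q mice. WT mouse 2 and 113Q mouse 2 crossed, and the difference did not pass (log2 fold change 0.47, SE 0.18, adjusted p = 0.0774). It passed in DESeq2 (adjusted p = 0.0437) and without either of those mice (adjusted p = 0.0392 without WT mouse 2 and 0.0476 without 113Q mouse 2). Sat1 is also abundant in macrophages. The 9 macrophage markers with a row summed to between 105 and 146 CPM in WT mice against between 119 and 137 CPM in 113Q mice. These ranges overlapped, and 0 of the 9 were called by edgeR. The part of macrophages in the Sat1 values was not tested.

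**Figure D2:**
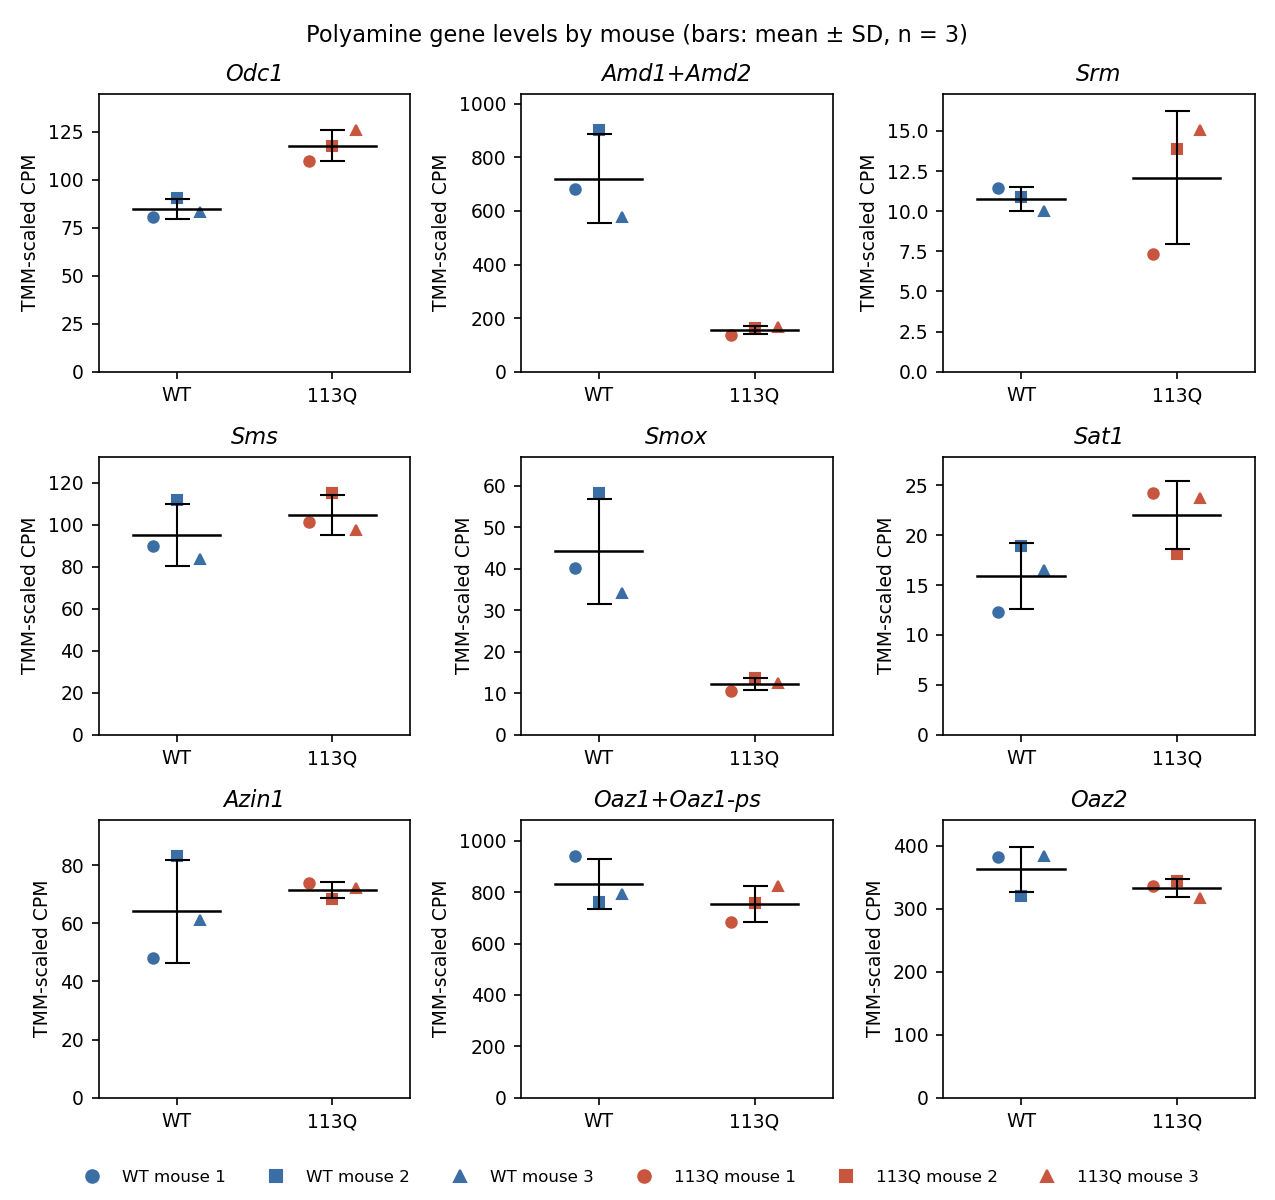
TMM-scaled CPM (y axis, from 0) of the polyamine genes in WT (blue) and 113Q (red), 1 symbol per mouse number, with the mean and SD of 3 mice as bars; Amd1 is summed with Amd2 and Oaz1 with Oaz1-ps. Odc1 is above WT in every 113Q mouse, the Amd1 and Amd2 sum and Smox are below WT in every 113Q mouse, and the ranges of the other 6 panels overlap.

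The regulators of ornithine decarboxylase showed no change that passed. Oaz2 (chr9:65668001-65690300), the second antizyme, was at 382.6, 320.7 and 384 CPM in WT mice against 335.8, 344.3 and 316.3 CPM in 113Q mice. The interval of its log2 fold change was -0.34 to 0.09 (adjusted p = 0.349). Azin1 (chr15:38487427-38519266), a relative of ornithine decarboxylase without its activity, was at 47.9, 83.2 and 61.0 CPM in WT mice against 73.8, 68.3 and 72.1 CPM in 113Q mice. The WT mice were more spread out than the 113Q mice, whose SD was 2.81 CPM against 17.85 CPM in WT, and the log2 fold change of 0.16 did not pass (adjusted p = 0.558). It did pass without WT mouse 2 (log2 fold change 0.39, adjusted p = 0.0373), and without WT mouse 1 it was -0.02. Exons of Azin1 overlap Gm49077 on the other strand, and those of Oaz1 hold the microRNA gene Mir1982.

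Because the TMM factor follows the group, the fold changes were also computed from library totals alone. On that scale 64.9% of all genes tested were called higher and 4.19% lower. Of the members 6 were higher and 2 lower. Odc1 then had a log2 fold change of 1.19, and Smox, -1.13, was still lower (adjusted p = 0.000956), as was the Amd1 and Amd2 sum at -1.49. Srm, Sms, Sat1, Oaz2 and Azin1 were called higher with values between 0.59 and 1.19. The median of all genes on that scale was 0.73. Oaz1 and Oaz2 turned from negative to positive, at 0.50 and 0.59, as did Oaz1 and Oaz1-ps summed, at 0.58. That sum was then called higher (edgeR adjusted p = 0.00142), while Oaz1 alone did not pass (adjusted p = 0.16).

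**Figure D3:**
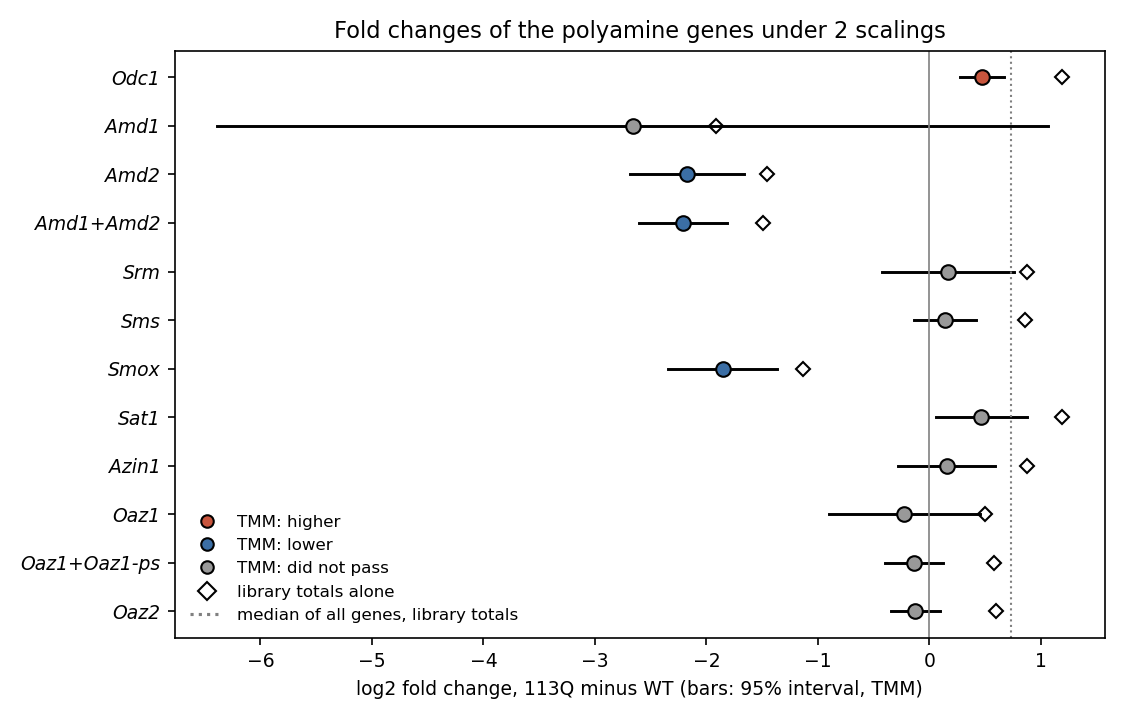
Log2 fold change of each polyamine gene, 113Q minus WT (x axis), with TMM scaling (circles, with 95% intervals) and with library totals alone (open diamonds); the dotted line is the median of all genes with library totals. Smox, Amd2 and the Amd1 and Amd2 sum are below 0 and Odc1 above 0 on both scales, and Amd1 alone has an interval from -6.39 to 1.06.

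Ratios of members within a library do not depend on the scaling between libraries, and 8 were compared with an exact two-sided permutation test, whose smallest possible p with 3 against 3 is 0.1. The ratio of Odc1 counts to the Amd1 and Amd2 sum was at log2 values of -3.08, -3.32 and -2.79 in WT and -0.33, -0.47 and -0.40 in 113Q. In linear terms, 0.119 Odc1 counts per Amd count in WT became 0.758 in 113Q, a 6.34-fold difference with no overlap (exact p = 0.1; 0.267 adjusted over the 8 ratios, as for the next pair). Odc1 to Smox was 1.97 in WT and 9.67 in 113Q, 4.92 times higher with no overlap (exact p = 0.1). Smox to Sat1 was 2.75 in WT and 0.557 in 113Q, so Smox counts exceeded Sat1 counts in every WT mouse and fell short of them in every 113Q mouse (exact p = 0.1).

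The other 5 of these 8 ratios overlapped between groups: Odc1 to Oaz1, Odc1 to Azin1, Azin1 to Oaz1, Srm to Sms and Amd1 to Amd2, with exact p between 0.2 and 1. All 8 use the same counts as the fold changes of the members, so they are not separate support for them. The members were chosen with earlier results of these data known. The ratio of Odc1 to antizyme depended on how the pseudogene was treated. With Oaz1 alone it was 1.56 times higher in 113Q with overlap (exact p = 0.3), whereas with Oaz1 and Oaz1-ps summed it was 1.53 times higher with no overlap, and with Oaz2 1.51 times higher with no overlap (exact p = 0.1 each, 0.2 adjusted over 4 added ratios). The ratios to the Oaz1 and Oaz1-ps sum and to Oaz2 were added after the values were seen. Srm to Sms stood at a mean log2 of -3.13 in WT and -3.18 in 113Q.

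**Figure D4:**
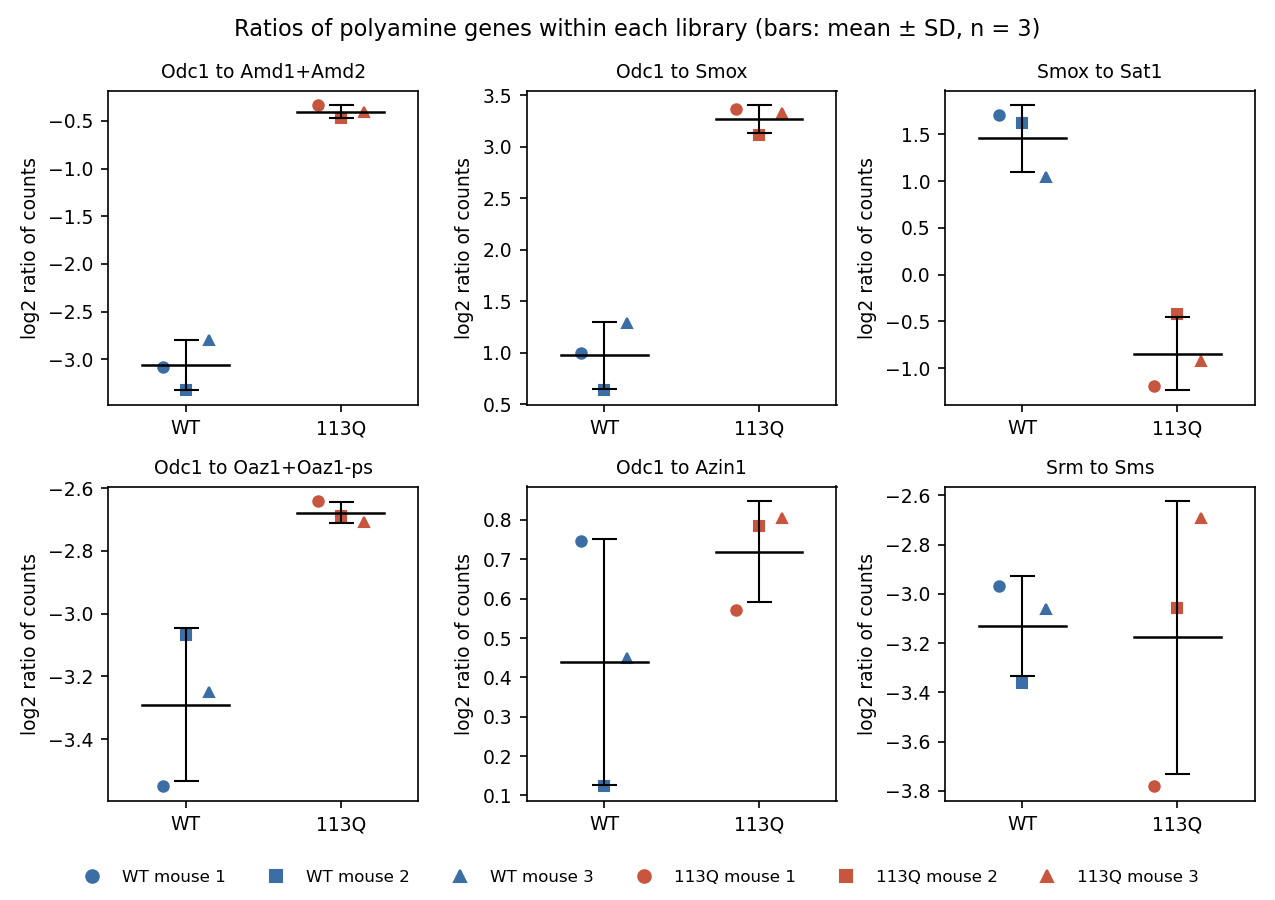
Log2 ratio of the counts of 2 polyamine genes within each library (y axis) for WT (blue) and 113Q (red), 1 symbol per mouse number, with the mean and SD of 3 mice as bars; each panel has its own axis range. The top row shows no overlap between groups, with differences of 2.66, 2.30 and -2.30 on the log2 scale, while Odc1 to Azin1 and Srm to Sms overlap.

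Levels of different genes were compared per kilobase of annotated exons. The order at the top depends on how copies are treated and on the length taken for Oaz1. In WT, Oaz1 with Oaz1-ps, summed over the length of Oaz1 after the values were seen, stood at 325 ± 38.0 CPM per kilobase and the Amd1 and Amd2 sum at 224 ± 51.7. Oaz1 alone stood at 126 ± 50.1 and Oaz2 at 121 ± 12.1. Odc1 stood at 24.9 ± 1.55, Sms at 15.8 ± 2.48, Smox at 11.3 ± 3.23, Azin1 at 10.2 ± 2.85, Srm at 6.74 ± 0.463 and Sat1 at 5.74 ± 1.203 CPM per kilobase, and Smox and Azin1, and Srm and Sat1, were within their spread of each other. In 113Q, Oaz1 with Oaz1-ps stood at 295 ± 27.3, Oaz2 at 111 ± 4.795 and Oaz1 alone at 108 ± 15.6, above the Amd1 and Amd2 sum (48.4 ± 4.86) and Odc1 (34.6 ± 2.40). Smox was the lowest of the 113Q levels apart from Amd1 alone, at 3.14 ± 0.385 CPM per kilobase, below Srm (7.56 ± 2.59) and Sat1 (7.94 ± 1.23). Per kilobase of the longest transcript, Odc1 (53.3 ± 3.70) came above the Amd1 and Amd2 sum (48.4 ± 4.86) in 113Q. On that length Oaz2 (197 ± 19.6) came above Oaz1 alone (128 ± 50.75) in WT, and Sat1 (11.8 ± 2.47) above Srm (8.06 ± 0.553). The exon union and longest transcript of Oaz1 are 2558 and 2526 bases, but another of its annotated transcripts has 1044. Over that shorter length Oaz1, alone or with Oaz1-ps, would stand higher, so its place in the order is not settled.

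Sequence near the RefSeq start is shown for Odc1 and Smox, the other members that were called, because they moved in opposite directions. The annotations place these starts differently: the RefSeq start lies 79 bases downstream of the GENCODE gene start at Odc1, 366 at Smox and 8547 at Oaz2, and within 2 bases at Amd1, Amd2, Sms, Sat1 and Oaz1. Each line is therefore the longest stretch, within the 250 bases before the RefSeq start, that lies outside GENCODE exons of the gene. For Odc1 that is chr12:17544623-17544793, upstream of both starts, and for Smox chr2:131491654-131491763, inside the gene between the first exons of different GENCODE transcripts. Both are on the plus strand of GRCm38.p6, with GGGCGG (a GC box, the motif bound by Sp1-type factors) in capitals on either strand.
Odc1: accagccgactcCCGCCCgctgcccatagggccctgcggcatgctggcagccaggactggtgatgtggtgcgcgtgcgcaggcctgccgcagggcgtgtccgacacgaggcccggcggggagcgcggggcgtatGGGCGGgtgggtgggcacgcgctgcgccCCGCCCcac
Smox: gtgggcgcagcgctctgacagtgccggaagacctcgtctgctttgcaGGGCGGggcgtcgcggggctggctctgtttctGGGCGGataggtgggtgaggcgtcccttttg
The Odc1 stretch of 171 bases holds 3 such boxes at a GC content of 77.2% and the Smox stretch of 110 bases holds 2 at 67.3%, beside a median of 52.4% over the 250 bases before all RefSeq starts. Of the 8 members with a RefSeq window of 300 bases, 6 hold GGGCGG in any of their windows, and Amd2 is not among them. Of all single windows, 35.7% hold it. CACGTG, the E-box, was in a window of Sms and in 7.15% of all single windows. Members were counted by any window and the background by single windows, so these shares are not directly comparable. These are matches of letters within 300 bases.

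The genes with the profile most like a member over the 6 libraries were found by the root mean square difference of centred log2 CPM. Nearest to Odc1 were Ift20 (0.034), Prelid1 (0.039) and Nisch (0.042). Nearest to Smox were Efr3b (0.079), Frat2 (0.12) and Ccrn4l (0.12), and nearest to Amd2 were Frat2 (0.12), Rprml (0.13) and the skeletal muscle actin Acta1 (0.15). Frat2 was at 23.2, 34.3 and 19.5 CPM in WT mice against 5.28, 6.42 and 6.77 CPM in 113Q mice, close to the Smox pattern of a high WT mouse 2 and 3 low 113Q mice. Amd1 alone had no near profile, with Cyp3a11 at 0.58, Mup7 at 0.61 and Bhmt at 0.72 as the closest. These genes were at or below 0.223 CPM in all 113Q libraries and, like Amd1, highest in WT mouse 1.

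Around the members, of 40 further genes, in 5 lists, 34 were tested, and 10 were called higher and 12 lower. That is 64.7% of them, beside 34.6% of all genes tested; the difference was not tested. Their median log2 fold change was -0.08. The lists were written with earlier results of these data known. With library totals alone 20 were higher and 2, Slc7a2 and Slc47a1, lower; the other 10 called lower lost that call, Gpc1 staying negative at -0.16 and Mat2a, Mat2b, Apip, Enoph1, Got1, Ahcy, Eif5a, Atp13a2 and Cav1 turning positive. Falls of these 10 genes are therefore falls relative to the other genes.

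In the supply of ornithine and S-adenosylmethionine, 3 of 7 tested genes were higher and 2 lower. Asl, the argininosuccinate lyase that releases arginine, was at 9.42, 10.8 and 10.9 CPM in WT mice against 33.3, 36.1 and 34.7 CPM in 113Q mice, a 3.33-fold rise with little spread (edgeR adjusted p = 1.71e-05). Gatm, which uses arginine for creatine synthesis and releases ornithine, rose 2.36 times (adjusted p = 0.000912), and Oat, ornithine aminotransferase, rose 1.25 times from a high level of 449 ± 23.6 CPM (adjusted p = 0.0145). Mat2a, the enzyme that makes S-adenosylmethionine in muscle, fell from 279.6 ± 35.4 to 187.8 ± 18.5 CPM (adjusted p = 0.00596). Its partner Mat2b had a log2 fold change of -0.30 (adjusted p = 0.0333), and with library totals alone it was called higher (0.42, adjusted p = 0.00575). The arginases were near the detection limit: Arg1 had a mean of 0.112 CPM in WT mice against 0.121 CPM in 113Q mice, and Arg2 was too low to be tested.

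In the list for methionine salvage, which recycles the by-product of both aminopropyl transferases, 1 of 7 genes was higher and 4 were lower. Mtap, the phosphorylase that takes up that by-product, rose from 8.69 ± 1.21 to 15.5 ± 0.494 CPM (adjusted p = 0.00161). Among the later steps Enoph1 and Apip fell, with log2 fold changes of -0.57 and -0.42, as did the aminotransferase Got1 (-0.48). Ahcy, also in the list, fell too (-0.37), but it clears S-adenosylhomocysteine and not that by-product. Adi1 had a log2 fold change of -0.03 and Mri1 of -0.15, and neither passed. With library totals alone none of these 4 was called lower, and Apip and Ahcy were called higher (log2 fold changes 0.30 and 0.35).

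In hypusination, the use of spermidine to modify the translation factor eIF5A, 1 of 4 genes was higher and 1 lower. Dhps, which transfers the spermidine group, rose 1.59 times (20.7 ± 3.45 to 32.8 ± 1.61 CPM, adjusted p = 0.00444). Eif5a, the substrate, fell from 414.7 ± 58.9 to 279.2 ± 15.9 CPM (adjusted p = 0.00539), while Dohh and the second substrate gene Eif5a2 did not pass (adjusted p = 0.62 and 0.928). Among further regulators and breakdown enzymes 1 of 4 was higher and 0 lower: Sat2, a relative of Sat1, rose 1.95 times (adjusted p = 0.00282). Paox, which oxidises acetylated polyamines, was at 11.5 ± 1.63 CPM in WT mice against 12.6 ± 0.143 CPM in 113Q mice and did not pass (adjusted p = 0.455).

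Transport held the largest difference of these lists, with 4 of 12 tested genes higher and 5 lower. Slc47a1, an exporter of organic cations, was at 72.1, 115 and 77.9 CPM in WT mice against 6.72, 4.98 and 6.65 CPM in 113Q mice, 14.5 times lower (log2 fold change -3.85, SE 0.23, edgeR adjusted p = 6.06e-05). Slc7a2, a carrier of arginine and ornithine, fell 2.63-fold from 269.5 ± 37.5 to 102.5 ± 6.20 CPM (adjusted p = 8.66e-05), while its relative Slc7a1 rose from 3.74 ± 0.635 to 8.13 ± 1.71 CPM (adjusted p = 0.00419). These carriers of the same substrates moved in opposite directions.

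Of the polyamine pumps, Atp13a3 rose from 52.7 ± 2.37 to 82.3 ± 4.34 CPM (adjusted p = 0.000524) and Atp13a5 by 0.78 on the log2 scale (adjusted p = 0.0466). Atp13a2, the lysosomal member, fell by 0.43 on the log2 scale (adjusted p = 0.0335). The vesicular carrier Slc18b1, listed in the table under an older symbol, rose 1.505 times (adjusted p = 0.0192). Gpc1, a cell surface proteoglycan, fell from 380.6 ± 42.9 to 206 ± 11.8 CPM (adjusted p = 0.000426) and Cav1, a caveolar protein abundant in vessels, had a log2 fold change of -0.49 (adjusted p = 0.0378). All 8 endothelial markers were lower too, summing to between 399.9 and 500.5 CPM in WT mice against between 277 and 282 CPM in 113Q mice; their part in the result for Cav1 was not tested. Satellite cell markers went the other way, with 7 of 8 called higher and sums of 69.7 to 73.1 CPM in WT and 119.7 to 145.1 CPM in 113Q; their part in the rises, and that of the fast myofibre markers in the falls, was not tested.

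**Figure D5:**
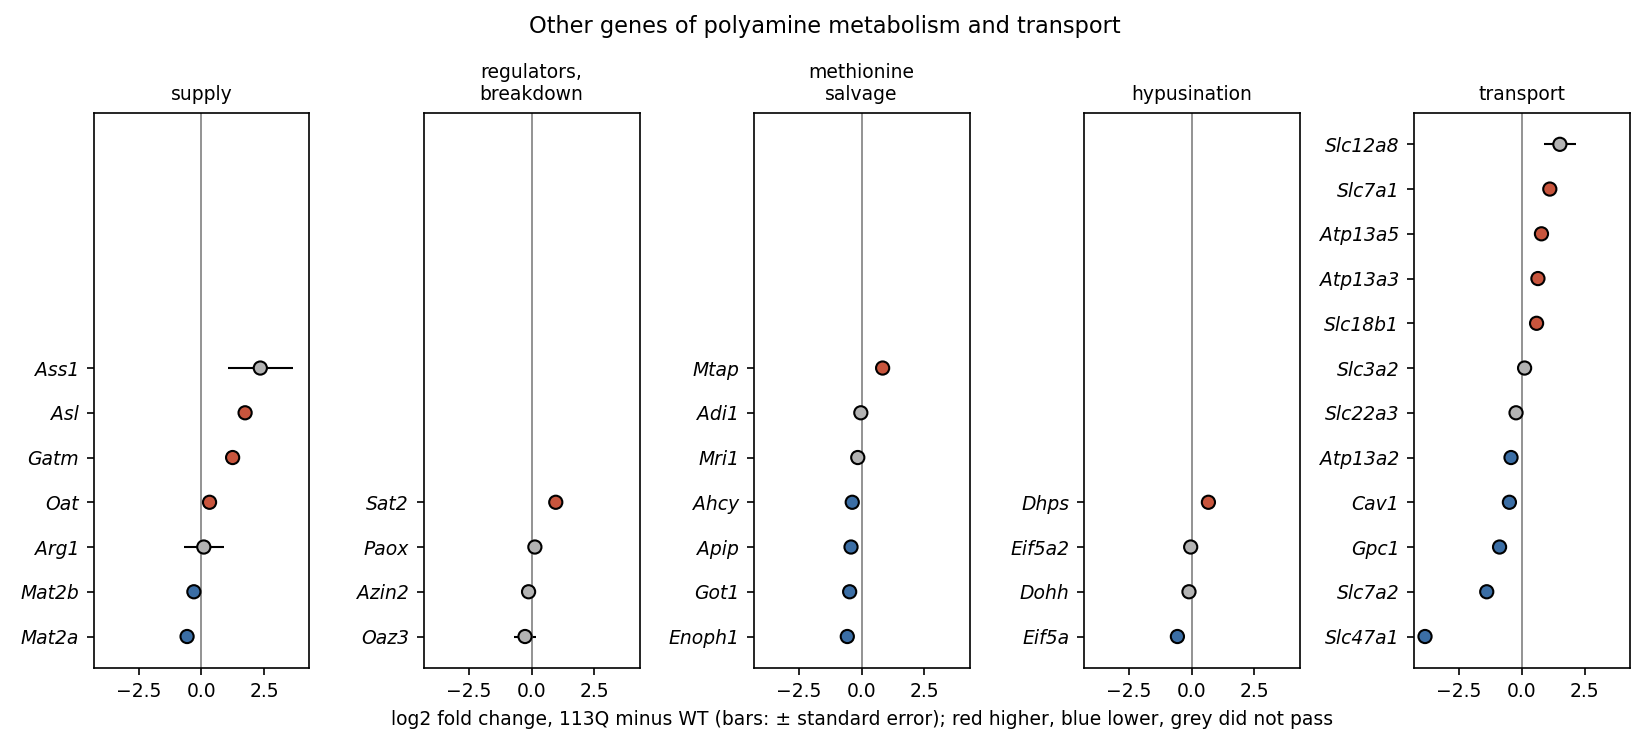
Log2 fold change, 113Q minus WT (x axis), of the 34 tested genes around the polyamine pathway, 1 panel per list, with standard errors as bars that are often smaller than the symbol; red marks genes called higher, blue called lower and grey those that did not pass. Slc47a1 at -3.85 lies furthest left, and Asl at 1.74 is the highest of the called genes.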

How the data were processed

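The deposited table holds expected counts, estimated fragments per gene and mouse without scaling, deposited by the authors as Cuffdiff 2.1.1 output; TopHat2 2.0.9, Bowtie2 2.1.0, cutadapt, Cufflinks, FastQC 0.10.0 and the build mm10 are named too, per the submitters' processing notes. For the gene annotation, the strand setting and the handling of reads with several matches, details were not given in the sources used here. Between 5.38% and 5.96% of the values per library were fractional, among them all values of Amd1, Amd2 and Oaz1.

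Counts were rounded, filtered with filterByExpr (minimum count 10), scaled with TMM factors and tested over all genes with a robust quasi-likelihood F test in edgeR 4.0.16 (R 4.3.3, two-sided, Benjamini-Hochberg, threshold 0.05). The SE was obtained by dividing the fold change, in log2 units, by the root of F, and intervals are 95%. Alternatives used DESeq2 1.42.0, limma 3.58.1 voom and others. Ratios had a prior count of 0.5. Copies were found with blastn 2.17.0 in GENCODE M21 transcripts. Exon lengths and coordinates are from GENCODE M21, on the same assembly as mm10. Of the pathway genes 3 were matched through older RefSeq symbols (Azin2, Aoc1 and Slc18b1).

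Groups came from the source label. The labels name separate mice, so the edgeR tests set group differences against the spread between these mice, estimated with information from all genes. Replicates differed by more than sampling noise. The scripts were tested on simulated data. The members and lists were chosen with earlier results of these data known. The named genes are all members, the genes of the pathway and marker lists, and the 3 nearest profiles of Odc1, Amd1, Amd2 and Smox, leaving out uncharacterised and small RNA symbols. The gene altered in the model is not reported here.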

Additional observations from a re-analysis of the deposited data

How the results depend on the processing

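Amd2, Smox and the Amd1 and Amd2 sum kept their direction and stayed past the threshold in the 21, 20 and 20 alternatives run, and Odc1 in 19 of 20. Over all genes, library totals alone gave 11015 higher and 710 lower, adjusted p below 0.01 gave 1462 and 1962, a test against a fold of 1.2 gave 1752 and 2041, and leaving out the 3 libraries with Epcam gave 1300 and 1827. The members called higher numbered 2 in DESeq2, 6 with library totals, 0 without the Epcam libraries and 2 without WT mouse 1 and 113Q mouse 1 (a setting chosen after seeing the data); leaving out 1 mouse at a time gave 1 to 3 higher, with 2 lower each time. Of the other pathway genes 20 were higher and 2 lower with library totals, 7 lower against a fold of 1.2, and 5 higher and 7 lower without the Epcam libraries.

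Among results that did not pass in the main fit, directions turned. With library totals Oaz1 was 0.50 and did not pass. Oaz2 at 0.59 and Oaz1 with Oaz1-ps at 0.58 passed as higher on that scale (edgeR adjusted p = 0.000965 and 0.00142). Srm was -0.063 with a term for Epcam libraries and -0.54 without those libraries. Without both mice numbered 1, Oaz1 was 0.028, Azin1 -0.033, Oaz1 with Oaz1-ps 0.029, and the log2 ratios were 0.22 for Amd1 to Amd2, -0.048 for Azin1 to Oaz1, 0.34 for Srm to Sms and -0.046 for Azin1 to Oaz1 with Oaz1-ps. Leaving out 1 mouse at a time, Oaz1 ranged from -0.41 to 0.15 (positive without WT mouse 1), Azin1 from -0.016 to 0.39 and Srm from -0.015 to 0.43. The ratio differences ranged from -1.04 to 1.12 for Amd1 to Amd2, -0.14 to 0.68 for Azin1 to Oaz1 and -0.29 to 0.26 for Srm to Sms. The causes were not tested.

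The mouse numbers are only names, so they were not taken as pairs. Over genes, deviations from the group mean correlated at 0.20, 0.24 and -0.27 between same-numbered mice. Between mice with different numbers the correlations ranged from -0.436 to 0.379. With the mouse number as a replicate block, 2154 genes were higher and 2583 lower, 1 member was higher and 2 lower, and Odc1 was 0.47 (edgeR adjusted p = 0.0129), Amd2 -2.16 and Smox -1.82. The ratios have 3 mice a group, which limits the exact permutation p to 0.1. Counts of 3 correspond to between 0.0322 and 0.0888 CPM per library, so depth limits Arg1 and the untested genes, not the members.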
